A study of Mus musculus with 35 samples.

Results

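The genes of the interferon response and of class I antigen presentation were followed in whole kidneys of diabetic and control mice. The group holds 37 genes, taken as a fixed list of names, and each gene was read from its brightest probe set that is annotated to that gene alone. Of the 37, 34 had such a probe set and 33 were bright enough to be tested, among 13004 genes tested in all. Mx1 had a probe set but a mean log2 signal below the filter of 5.27, and Isg15, H2-T23 and Ifi44 were not analysed here.

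The mice were of the FVB/NJ strain. Diabetic mice were of the OVE26 line, which as background carries a calmodulin transgene driven by an insulin promoter in the pancreatic beta cells and is deficient in insulin from early life. The control mice are described in the labels by strain, age and tissue, with no genotype or agent stated. The 2-month groups hold 6 diabetic and 6 control arrays, the 4-month groups 7 diabetic and 4 control arrays, and the 8-month groups 6 diabetic and 6 control arrays. The labels number the arrays of a group without saying that each is a separate mouse, so the p-values measure the spread between these arrays.

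Cells that meet viral nucleic acid, or that receive an interferon, switch on a common set of genes. Sensors such as Ifih1 and the oligoadenylate synthetases detect double-stranded RNA, type I interferons act through a complex with Stat2 and Irf9 that binds the interferon-stimulated response element, and interferon-gamma signalling acts on genes that carry the gamma-activated sequence. Class I presentation uses proteasomes with exchanged catalytic subunits, the TAP transporter and tapasin to load peptides onto heavy chains paired with beta-2 microglobulin. In the kidney, tubular and glomerular cells as well as resident and infiltrating leukocytes can express these genes.

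The arrays were kidney RNA by their markers, since the mean log2 signal of 9 kidney epithelium markers lay between 11.6 and 12.7 in all 6 groups. Of the 35 arrays no 2 were identical. The deposited values differ in level by age, with array means of 6.43 to 6.44 at 2 months, 6.02 to 6.04 at 4 months and 6.54 at 8 months, so every comparison was made within an age and an array is set beside arrays of its own age. Arrays have no read depth, and their number limits the precision. The 3'/5' log2 ratio of the beta-actin control probe sets, a sign of RNA quality, lay between 0.780 and 0.946 on 8-month diabetic arrays, against 0.935 to 1.05 on 8-month control arrays. At 2 months it reached 2.56 on 1 control array.

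Sequences upstream of the members are shown first, with matches to short motifs marked. Binding to these stretches was not measured, and its part in the results was not tested. A gene was taken to be called when its adjusted p was under 0.05. Promoters of 32 of the 37 members were found in the RefSeq table (GRCm38.p6), and those of Oas2, Mx1, Mx2, Usp18 and Tap2 were not. Over the 300 bases from 250 before to 50 after the start, on both strands, the core of the interferon-stimulated response element (a pair of GAAA with 2 bases between them) was present in 14 of the 32, or 43.8%, against 3.99% of 27025 genes. The gamma-activated sequence (TTCNNNGAA) was present in 8, or 25.0%, against 9.55% of all genes. The kappaB motif, the binding motif of NF-kappaB, was present in 6, or 18.8%, against 5.14%. Matches can overlap each other, and a match is a string of letters and not a shown site. The 150 bases before the start follow for 6 members with the response-element core, with matches to any of the motifs in capitals, written 5′ to 3′ on the strand of the gene. For a gene with several starts in the table the stretch with the most matches is shown.
Ifit1, chr19:34640739-34640888, plus strand: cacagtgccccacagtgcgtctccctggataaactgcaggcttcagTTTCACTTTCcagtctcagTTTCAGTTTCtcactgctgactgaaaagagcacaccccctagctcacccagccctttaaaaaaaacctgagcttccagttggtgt
Oas1a, chr5:120907526-120907675, minus strand: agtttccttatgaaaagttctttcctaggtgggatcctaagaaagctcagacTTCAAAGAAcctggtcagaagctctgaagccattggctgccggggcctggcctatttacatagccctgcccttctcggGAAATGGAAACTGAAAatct
Bst2, chr8:71537473-71537622, minus strand: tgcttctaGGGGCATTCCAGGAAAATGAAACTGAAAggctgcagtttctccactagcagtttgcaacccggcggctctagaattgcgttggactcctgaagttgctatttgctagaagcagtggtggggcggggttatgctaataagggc
Gbp2, chr3:142620513-142620662, plus strand: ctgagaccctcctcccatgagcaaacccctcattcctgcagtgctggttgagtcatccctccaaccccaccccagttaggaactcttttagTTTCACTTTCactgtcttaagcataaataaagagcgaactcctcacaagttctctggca
Gbp3, chr3:142559894-142560043, plus strand: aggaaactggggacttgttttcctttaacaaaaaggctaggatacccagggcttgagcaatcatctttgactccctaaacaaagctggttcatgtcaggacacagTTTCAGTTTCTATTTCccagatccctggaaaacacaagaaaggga
Igtp, chr11:58199406-58199555, plus strand: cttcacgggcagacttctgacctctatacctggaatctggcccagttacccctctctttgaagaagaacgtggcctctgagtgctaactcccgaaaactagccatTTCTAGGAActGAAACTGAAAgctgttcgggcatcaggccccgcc

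Ifit1 holds separate copies of the core, at 104 to 95 and at 85 to 76 bases before the start. In Oas1a and Bst2 copies overlap, and Bst2 carries the 3 motifs in an overlapping run at the far end of the stretch. Gbp2, Gbp3 and Igtp, all interferon-inducible GTPases, have the core close to the start, and their 8-month differences between diabetic and control kidneys were 1.04, -0.06 and 0.83 on the log2 scale. The next 3 members have no exact match to the response-element core in this window. Psmb8 has a match to the gamma-activated sequence, and H2-K1 and Ubd have a match to the kappaB motif.
Psmb8, chr17:34198045-34198194, plus strand: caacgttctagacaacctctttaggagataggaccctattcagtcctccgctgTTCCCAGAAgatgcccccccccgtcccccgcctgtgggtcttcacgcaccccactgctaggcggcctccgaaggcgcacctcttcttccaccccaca
H2-K1, chr17:34000348-34000497, minus strand: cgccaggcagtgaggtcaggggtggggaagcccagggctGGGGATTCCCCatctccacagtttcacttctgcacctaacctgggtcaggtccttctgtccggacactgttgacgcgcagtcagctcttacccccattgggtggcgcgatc
Ubd, chr17:37193742-37193891, plus strand: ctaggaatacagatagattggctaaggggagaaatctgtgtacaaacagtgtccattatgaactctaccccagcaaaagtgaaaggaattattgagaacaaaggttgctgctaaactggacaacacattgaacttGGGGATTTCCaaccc

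Most members were higher in diabetic than in control kidneys at 8 months, and at 2 and 4 months nearly none passed the test. At 2 months 0 of 33 members were called higher and 0 lower by limma, where 0.754% of all genes were called higher and 1.78% lower. At an unadjusted p under 0.05, 0 members were higher and 1 was lower, against 720 and 1262 of the 13004 genes. At 4 months 0 members were called higher and 1 lower (Gbp3), against 0.415% and 0.554% of all genes. At 8 months 27 of 33 were called higher and 0 lower, against 9.87% and 6.95% of all genes. These shares also stand beside the 8-month counts by role below. By an unadjusted p under 0.05, 0 members were lower, against 1608 of the 13004 genes. The median log2 difference of the members, diabetic minus control, stood at 0.01 in 2-month, 0.00 in 4-month and 0.65 in 8-month kidneys, while the median of all genes stayed between -0.01 and 0.01. Of the 12 tested members with the response-element core in the window 8 were called higher at 8 months, and of the 17 without it 16 were, a count given with no test. The core was searched as an exact string, so an element with other letters, or outside the window, counts as absent. The plot of differences by age shows the shift of nearly the whole set at the oldest age.

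**Figure D1:**
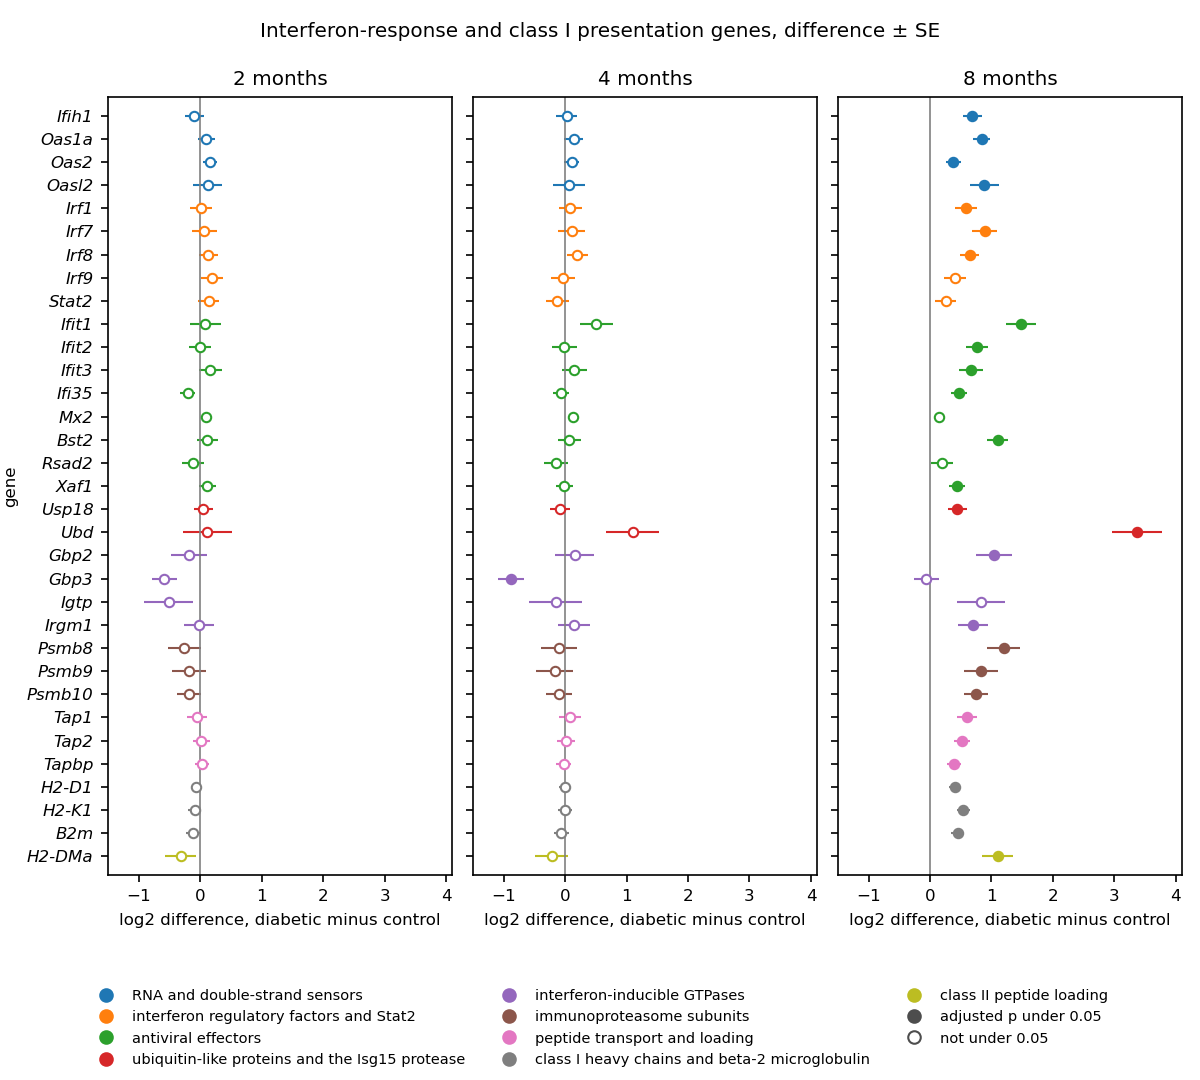
Log2 difference, diabetic minus control, ± SE of the limma fit for the 33 tested members at 2, 4 and 8 months, ordered and coloured by role, with filled points for an adjusted p under 0.05. At 8 months 32 of 33 points lie above 0, with Ubd the highest at 3.37, and at 4 months the only filled point is Gbp3 at -0.88.

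The 4 sensors of double-stranded RNA were all called higher at 8 months, with a median difference of 0.76. Oas1a, an oligoadenylate synthetase that activates RNase L, had the smallest p among them (probe set 1424775_at). On 8-month diabetic arrays its lowest, median and highest log2 signals were 7.26, 7.65 and 8.73, against 6.74, 6.87 and 7.27 on control arrays. Only the lowest diabetic array stood below the highest control array, and the difference was 0.84 ± 0.14 (SE), or 1.79-fold, with a limma adjusted p of 3.44e-05. At 2 months the Oas1a ranges were 7.33 to 7.69 in diabetic and 7.25 to 7.52 in control kidneys. At 4 months they were 7.02 to 7.31 in diabetic and 6.89 to 7.08 in control kidneys, so the groups overlapped at both earlier ages. Oasl2, a related protein with ubiquitin-like domains, rose by 0.89 ± 0.24. Its 8-month diabetic arrays ran from 6.47 over a median of 6.90 to 8.54, against 6.00, 6.29 and 6.67 on control arrays, and 3 of 6 diabetic arrays lay above all controls. Ifih1, the helicase sensor MDA5, rose by 0.69 ± 0.16 with all 6 diabetic arrays above all controls, and Oas2 rose by 0.38 ± 0.12. The Oas2 call was lost without diabetic array 3 or without control array 1 or 2, with an adjusted p of up to 0.0874.

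Among the transcription factors 3 of 5 were called higher at 8 months, with a median of 0.58. Irf7, which drives the amplification of type I interferon, had the smallest p (probe set 1417244_a_at). The 8-month diabetic arrays gave 6.30, 6.76 and 8.47 as lowest, median and highest signals, against 5.88, 6.08 and 6.34 on control arrays. Array 3 held the highest diabetic value, 5 of 6 diabetic arrays lay above all controls, and the SD was 5.50 times as large in diabetic as in control arrays. Irf7 rose by 0.89 ± 0.20 (adjusted p = 0.00177). Irf8, a factor of myeloid and B-lineage cells, rose by 0.65 ± 0.15, and Irf1, a direct target of interferon-gamma, rose by 0.58 ± 0.18. Without diabetic array 1 or without array 3 the Irf1 call was lost, with an adjusted p of up to 0.0845. Irf9 and Stat2, which form the complex that type I interferon activates, were not called, at 0.41 ± 0.18 (adjusted p = 0.123) and 0.26 ± 0.17 (adjusted p = 0.348).

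Of the antiviral effectors 6 of 8 tested were called higher at 8 months, with a median of 0.57. Ifit1, which binds viral RNA that lacks the host cap methylation, had 8-month diabetic signals of 6.89, 8.03 and 9.30 (lowest, median and highest), against 6.19, 6.50 and 6.85 on control arrays (probe set 1450783_at). The groups did not overlap, and Ifit1 rose by 1.48 ± 0.25, or 2.80-fold (adjusted p = 4.36e-05). At 4 months its 7 diabetic arrays ran from 5.38 over 5.81 to 6.80, against 5.55, 5.59, 5.16 and 5.06 on the 4 control arrays. Diabetic array 1 held the highest value there, the groups overlapped, and the difference was 0.51 ± 0.27 (adjusted p = 0.490). Ifit2 and Ifit3, of the same family, rose at 8 months by 0.77 ± 0.18 and 0.67 ± 0.19. The Ifit3 call was lost without diabetic array 3 (adjusted p = 0.0603).

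Bst2, or tetherin, holds budding virus particles at the cell surface. At 8 months its diabetic arrays gave 7.33, 7.41 and 8.54, against 6.37, 6.63 and 7.00 on control arrays (probe set 1424921_at). Even the lowest diabetic array stood above the highest control, and Bst2 rose by 1.10 ± 0.17, or 2.15-fold (adjusted p = 1.52e-05). The 2-month arrays had ranges of 7.35 to 7.74 in diabetic and 7.02 to 7.84 in control kidneys, which overlapped. Ifi35 and Xaf1, both induced by interferon, rose by 0.47 ± 0.12 and 0.44 ± 0.13. Xaf1 was no longer called without diabetic array 1 or without array 3, with an adjusted p of up to 0.0758, and on its dimmer probe set, whose mean lay below the filter, the difference was -0.085 ± 0.074. Rsad2, or viperin, and Mx2, a dynamin-like GTPase, were not called, at 0.20 ± 0.18 and 0.15 ± 0.08. Mx1, below the filter and untested, had 8-month means of 4.77 ± 0.27 on diabetic arrays and 4.58 ± 0.07 on control arrays (SD, n = 6 each). The difference for Rsad2 was also small on its other probe sets, at 0.13 on each of them.

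Ubd, which encodes the ubiquitin-like protein FAT10 that marks proteins for proteasomal degradation, showed the widest difference of the members (probe set 1419762_at). On 8-month diabetic arrays the lowest, median and highest signals were 6.91, 8.02 and 10.29, against 4.70, 4.84 and 5.35 on control arrays. The gap between the groups exceeded the whole control range, and Ubd rose by 3.37 ± 0.40, or 10.3-fold (adjusted p = 3.03e-07). Its control means of 4.21, 4.51 and 4.92 at 2, 4 and 8 months lay below the filter of 5.27, so the fold has a dim baseline. The 2-month diabetic mean of 4.32 was below it too, so Ubd passed only through 4- and 8-month diabetic arrays. With no filter the 8-month call of Ubd was kept. At 4 months the 7 diabetic arrays ran from 4.94 over 5.16 to 7.64, against 4.26, 4.84, 4.62 and 4.31 on the 4 control arrays. These groups did not overlap either, with 2.37% of all genes separated in this direction at 4 months, but the difference of 1.10 ± 0.43 was not called (adjusted p = 0.297). The 2-month ranges were 4.00 to 4.80 in diabetic and 4.12 to 4.32 in control kidneys, one inside the other. Usp18, the protease that removes Isg15 from proteins, rose at 8 months by 0.45 ± 0.15. Its call held without 6 of the 12 arrays left out in turn, and was lost without diabetic array 2 or 3 or without control array 1, 2, 3 or 6 (adjusted p up to 0.142).

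The interferon-inducible GTPases divided among themselves, with 2 of 4 called higher at 8 months. Gbp2, a guanylate-binding protein that attacks pathogen vacuoles, had 8-month diabetic signals of 6.79, 7.78 and 9.36, against 6.78, 6.85 and 7.60 on control arrays (probe set 1435906_x_at). Diabetic arrays 4 and 5 lay within the control range and the other 4 lay above it, and Gbp2 rose by 1.04 ± 0.29 (adjusted p = 0.0116). Irgm1, an immunity-related GTPase, rose by 0.70 ± 0.25 with an adjusted p of 0.0466. That call stayed in only 3 of the 12 fits that leave out 1 array, those without diabetic array 4, 5 or 6.

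Gbp3, a close relative of Gbp2, was the only member called at 4 months and went the other way (probe set 1418392_a_at). The 7 diabetic arrays had 7.81, 8.39 and 8.67 as lowest, median and highest signals, against 8.85, 8.91, 9.24 and 9.62 on the 4 control arrays. The groups did not overlap, as in 2.44% of all genes in this direction, and Gbp3 fell by 0.88 ± 0.22 on the log2 scale (adjusted p = 0.0377). Without diabetic array 2, 5 or 6, or without control array 3 or 4, the call was lost, with differences of -0.98 to -0.73 over all arrays left out in turn. At 2 months the difference was -0.58 ± 0.20 (adjusted p = 0.124), with signals of 8.32 to 9.37 on diabetic and 9.001 to 9.79 on control arrays. By 8 months it was -0.06 ± 0.20, with 7.91 to 9.13 on diabetic and 8.11 to 9.15 on control arrays.

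Igtp, also called Irgm3, is given in detail although it was not called, and was chosen after its values were seen (probe set 1417141_at). On the 8-month diabetic arrays 1 to 6 its signals were 11.92, 9.11, 9.93, 8.87, 8.55 and 9.01, against 8.45, 8.26, 8.70, 9.52, 8.93 and 8.57 on the 6 control arrays. Diabetic array 1 stood far above every other, only arrays 1 and 3 exceeded all controls, and the difference was 0.83 ± 0.40 (adjusted p = 0.160). At 2 months Igtp ran from 7.88 to 8.56 on diabetic and from 8.57 to 9.01 on control arrays. The groups touched without overlap, as in 0.961% of all genes in this direction, and the difference of -0.51 ± 0.40 was not called (adjusted p = 0.586). It was the only member without overlap at that age.

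All 3 exchanged catalytic subunits of the immunoproteasome were called higher at 8 months, with a median of 0.83. Psmb8, or LMP7, had diabetic signals of 7.91, 8.44 and 10.35, against 7.44, 7.56 and 7.97 on control arrays (probe set 1422962_a_at). All but 1 of the diabetic arrays stood above all controls, and Psmb8 rose by 1.20 ± 0.27, or 2.29-fold (adjusted p = 0.00155). The 2-month ranges were 6.99 to 7.61 in diabetic and 7.27 to 7.93 in control kidneys. At 4 months diabetic arrays ran from 7.44 to 8.57, against 7.51, 8.70, 7.63 and 7.42 on the control arrays, and at both earlier ages the groups overlapped. Psmb9, or LMP2, rose at 8 months by 0.83 ± 0.28 and Psmb10, or MECL-1, by 0.75 ± 0.20. The Psmb9 call was lost without diabetic array 1 or 3 or without control array 1, 2, 5 or 6, with an adjusted p of up to 0.142.

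Peptide transport and loading genes, 3 of 3, were called higher at 8 months. Tap2, a chain of the TAP peptide transporter, had diabetic signals of 7.99, 8.11 and 9.26, against 7.66, 7.83 and 8.02 on control arrays (probe set 1453913_a_at). Its lowest diabetic array lay just inside the control range, and Tap2 rose by 0.52 ± 0.14 (adjusted p = 0.00718). Tap1, its partner, rose by 0.60 ± 0.16 and Tapbp, or tapasin, by 0.39 ± 0.11. The Tapbp call was lost without diabetic array 1 or without array 3, with an adjusted p of up to 0.0588.

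Class I heavy chains and beta-2 microglobulin were among the brightest genes of the set, and each of the 3 measured was called higher at 8 months. H2-K1, a classical heavy chain, had diabetic signals of 11.79, 12.08 and 12.72, against 11.41, 11.63 and 11.87 on control arrays (probe set 1451931_x_at). A single diabetic array stood below the highest control, and H2-K1 rose by 0.54 ± 0.11, or 1.46-fold (adjusted p = 4.88e-04). H2-D1 rose by 0.40 ± 0.08 without overlap, and B2m by 0.45 ± 0.11. Probe sets of H2-K1 and H2-D1 can bind transcripts of near-identical heavy chain genes, so these values are uncertain as to which heavy chain they read. H2-DMa, which encodes a chain of the class II peptide exchanger, had diabetic signals of 7.73, 8.27 and 9.71, against 7.19, 7.31 and 7.71 on control arrays (probe set 1422527_at). It rose by 1.10 ± 0.25, or 2.14-fold (adjusted p = 0.00187), with no overlap between the groups. On the dimmer probe set of H2-DMa, whose mean lay below the filter, the difference was 0.33 ± 0.14 (limma adjusted p = 0.138). At 2 months that probe set gave 0.23 ± 0.14. At 4 months 1 control array reached 8.74 for H2-DMa, above all 7 diabetic arrays, which ran from 6.90 to 7.89.

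**Figure D2:**
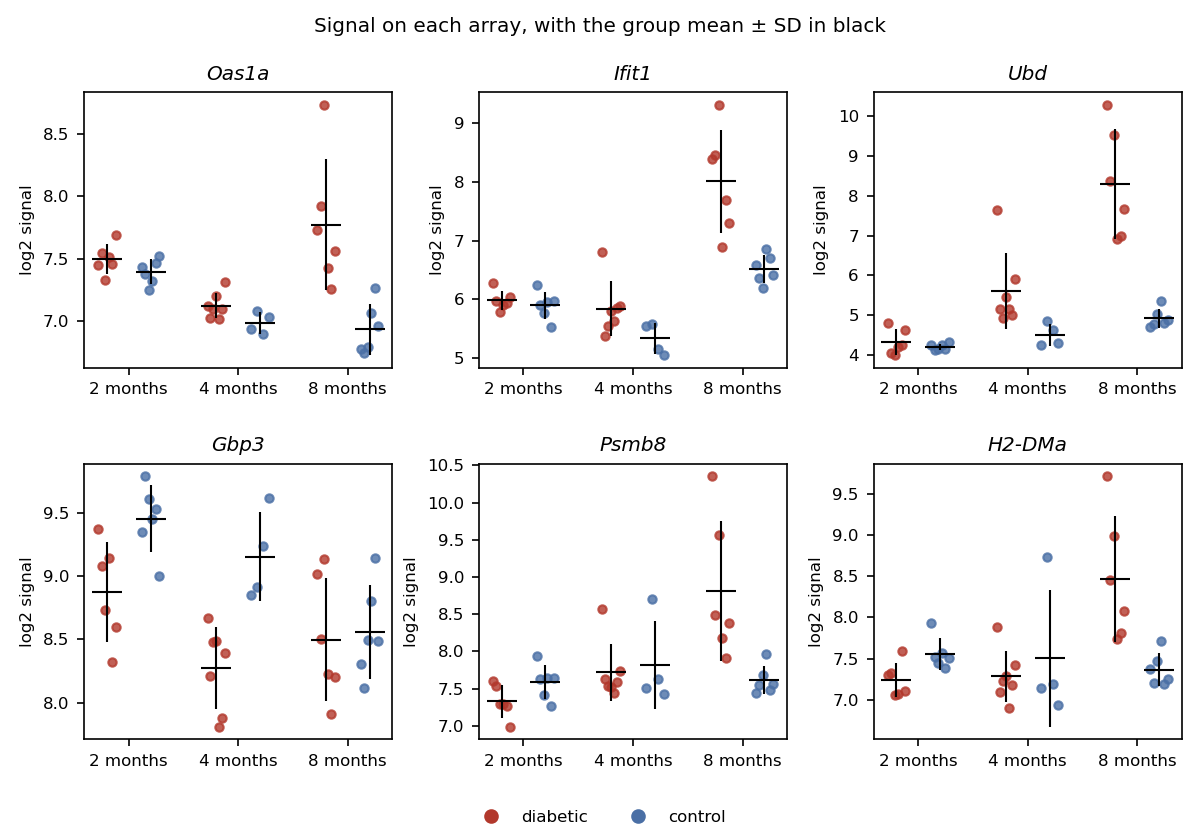
Log2 signal of Oas1a, Ifit1, Ubd, Gbp3, Psmb8 and H2-DMa on each array at 2, 4 and 8 months, diabetic left of control, with the group mean and SD in black (n = 6 and 6, 7 and 4, 6 and 6). At 8 months the diabetic points spread more widely than the control points in each of the 6 genes, and in Ubd they run from 6.91 to 10.29, against 4.70 to 5.35 in controls.

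Counted over the members, groups did not overlap in 7 of 33 genes at 8 months, all with higher diabetic values (Ifih1, Ifit1, Ifit2, Bst2, Ubd, H2-D1 and H2-DMa), against 5.41% of all genes in that direction, and 0 members lay wholly below the controls, against 4.28% of all genes. Of the 33 members 13 had further probe sets, 26 in all. For members called at 8 months, 23 further probe sets gave the same sign in 20 and a call in 14, and 11 of the 13 above the filter were called. The 3 of the other sign were 1 probe set each of Xaf1, Tap1 (-0.11) and H2-D1 (-0.018), and none of these 3 was called.

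The spread among 8-month diabetic kidneys was wide in these genes, though not in them alone. Array medians above the control mean ran from 0.15 to 1.19 for the members. For macrophage and dendritic cell markers, described below, they ran from 0.49 to 2.29. The SD was larger in diabetic than in control arrays for 33 of 33 members, with a median ratio of 3.02, a count not made over all genes. The median SD of the members was 0.554 on diabetic arrays and 0.192 on control arrays, against 0.156 and 0.110 over all genes tested. The fit gives all groups the same spread for a given gene, so its errors are too small where 8-month diabetic arrays vary more. With a fit on the 8-month arrays alone 15 members were called higher, among 2370 genes called in either direction. The calls of Oas2, Oasl2, Irf1, Irf7, Xaf1, Usp18, Gbp2, Irgm1, Psmb9, Tap1, Tap2 and Tapbp ended there, with adjusted p of 0.0535 for Gbp2 to 0.134 for Usp18, and their differences are those of the fit over all ages.

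The same arrays were high in gene after gene. Diabetic arrays 1 and 3 were among the 3 highest of the 6 diabetic arrays in 33 of 33 members, and arrays 1, 2 and 3 were the 3 highest in 28, all but Irf8, Stat2, Ifi35, Rsad2 and Gbp2. Each array's median over the members, taken from the control mean, was 1.17, 0.50, 1.19, 0.24, 0.15 and 0.27 for diabetic arrays 1 to 6, against -0.14 to 0.20 on control arrays. Without diabetic arrays 1 and 3, a choice made after seeing the data, the median difference of the members was 0.29 and 8 were called higher (Oas1a, Irf7, Ifit1, Bst2, Ubd, Psmb8, H2-D1 and H2-K1). Among these Ubd kept a difference of 2.56 ± 0.32 and Ifit1 one of 1.06 ± 0.22. Over all genes 1349 were called in that fit, in either direction.

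These 2 arrays did not rank the members alike. Diabetic array 1 was the highest of its group in 15 members, which were the GTPases Gbp2, Igtp and Irgm1, the 3 immunoproteasome subunits, Tap1, Tap2, Tapbp, H2-D1, H2-K1, B2m, H2-DMa, Irf1 and Ubd. Diabetic array 3 was the highest in the other 18, which held all 4 sensors, all 8 antiviral effectors tested, Irf7, Irf8, Irf9, Stat2, Usp18 and Gbp3. Some ranks were near ties. Array 1 minus array 3 was -0.009 for Ifi35, -0.036 for Stat2, -0.042 for Bst2 and -0.070 for Irf9. On the other side it was 0.057 for H2-D1 and 0.067 for Tapbp. Igtp stood 3.18 above the control mean on array 1 and 1.20 on array 3, while Irf7 stood 1.04 above it on array 1 and 2.36 on array 3. For Psmb9 the values were 2.40 on array 1 and 1.25 on array 3, and for Usp18 they were 0.26 and 1.46. With 1 array each, this contrast has no replicate check and no test.

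**Figure D3:**
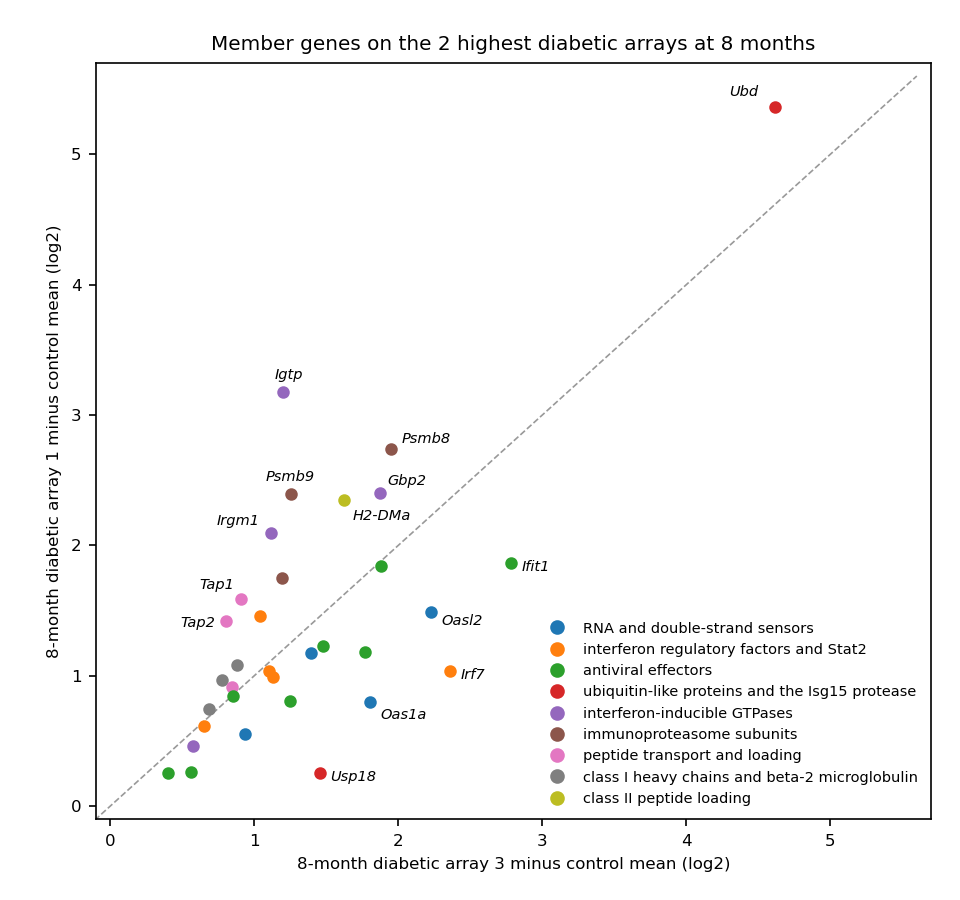
Log2 signal of each of the 33 members on 8-month diabetic array 1 (vertical) and array 3 (horizontal), each minus the mean of the 6 control arrays, coloured by role, with the line of equality dashed. Immunoproteasome, peptide loading and class I genes lie above the line, H2-D1 and Tapbp by 0.06 and 0.07, and sensors lie below it, with Igtp 1.98 above and Irf7 at a difference of -1.32.

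A single array also stood apart within each 4-month group. Diabetic array 1 was the highest of the 7 diabetic arrays in 27 of 33 members, with a median over the members of 0.42 above the control mean, against -0.10 to 0.00 on the other 6 diabetic arrays. Control array 2 was the highest of the 4 controls in 27 members, at 0.20, against -0.15 to -0.01 on the other 3. Igtp read 10.62 on that diabetic array, against 9.87 on that control array, while the remaining 4-month arrays lay between 8.06 and 8.85. Without both arrays, left out after seeing the data, the median difference at 4 months was 0.04 and Gbp3 was still the single member called, at -1.03 (adjusted p = 0.0396).

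Whether the diabetes difference changed with age was tested as a difference of differences. Between 8 and 2 months it was larger at 8 months for 33 of 33 members and called in 12, against 3.01% of all genes called in that direction and 0.877% in the other. These 12 were Ifih1, Oas1a, Ifit1, Ifi35, Bst2, Ubd, Psmb8, Psmb10, H2-D1, H2-K1, B2m and H2-DMa. Ubd had the largest change, 3.26 ± 0.57 (adjusted p = 6.35e-04), followed by Psmb8 at 1.46 ± 0.38, H2-DMa at 1.42 ± 0.35 and Ifit1 at 1.40 ± 0.35. As given above, Ubd was dim on control arrays and passed the filter only through 4- and 8-month diabetic arrays. With the replicate number as a block, Oas1a and Psmb10 were no longer called (adjusted p = 0.0607 and 0.0704). Second brightest probe sets lost the calls of Psmb8, Psmb10, H2-K1, B2m and H2-DMa, and the mean of all probe sets lost Psmb10, B2m and H2-DMa. Without arrays 5 and 6 of the 2-month groups, Ifih1, Oas1a, Psmb8 and Psmb10 were not called. Leaving out 1 array, Psmb8 lost this call without 8-month diabetic array 3 (adjusted p = 0.0513). B2m lost it without arrays 1 or 3 of the 8-month diabetic, 1 or 2 of the 8-month control, 3 of the 2-month diabetic or 1 of the 2-month control group (adjusted p up to 0.0685). Ifih1 kept it in 14 of 24 such fits (adjusted p up to 0.0805) and Psmb10 in 6 of 24 (up to 0.10). Between 8 and 4 months only Bst2 was called, at 1.03 ± 0.25 (adjusted p = 0.0329), against 0.738% of all genes in that direction. Ubd, at 2.27 ± 0.59, missed the threshold (adjusted p = 0.0531), and the Bst2 call held in 13 of the 23 fits that leave out 1 array, with an adjusted p of up to 0.114 in the others (4-month diabetic 2 or 6, 4-month control 2, 3 or 4, 8-month diabetic 1 or 3, and 8-month control 1, 2 or 3). Without 4-month diabetic array 1 and control array 2, Ubd was called for 8 against 4 months and Bst2 was not. These arrays were left out after seeing the data. With either quantile normalization both genes were called. Between 4 and 2 months limma called 0 members and 0 genes, and 0 members at an unadjusted p under 0.05. The 8-month arrays enter both of the first 2 tests, which are therefore not independent.

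Genes of the pathway outside the set were counted from lists of 117 genes in all, of which 90 were tested. At 8 months 32 of the 90 were called higher and 1 lower, against 9.87% and 6.95% of all genes. The same shares stand beside each 8-month count of the lists below. At 2 months 1 was called higher and 2 lower, against 0.754% and 1.78% of all genes. At 4 months 1 was called higher and 0 lower, against 0.415% and 0.554%. Of 6 interferon and receptor genes tested, 2 were called higher at 8 months: Ifngr1, a chain of the interferon-gamma receptor, by 0.62 ± 0.16, and Ifnar1, a chain of the type I receptor, by 0.33 ± 0.08. Ifngr2, with the next smallest p, was not called at 0.50 ± 0.23 (adjusted p = 0.138). The interferon genes Ifnb1, Ifng and Ifna4 had mean signals below the filter and were not tested.

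Kinases, STATs and negative regulators moved in both directions, with 3 called higher and 1 lower of 10 at 8 months. Socs3, an inhibitor of cytokine signalling, rose by 1.38 ± 0.22 and the kinase Jak1 by 0.34 ± 0.05. Jak2, a kinase of the interferon-gamma receptor, fell by 0.41 ± 0.08 on the log2 scale at 8 months and by 0.46 ± 0.08 at 2 months. Its groups did not overlap at either age, as in 4.28% of all genes in this direction at 8 months and 0.961% at 2 months. Of 11 further sensing genes 5 were called higher at 8 months, led by Sting1 at 0.65 ± 0.13, the endosomal RNA receptor Tlr7 at 0.47 ± 0.13 and Dhx58 at 0.36 ± 0.11.

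Of 34 other interferon-induced genes 12 were called higher at 8 months and 0 lower by limma, and at an unadjusted p under 0.05 17 were higher and 0 lower. Of all 13004 genes 2107 were higher and 1608 lower at 8 months by that unadjusted p. The chemokine Cxcl10, which attracts activated T cells, averaged 8.23 on 8-month diabetic and 6.02 on control arrays, a rise of 2.21 ± 0.20. It was also the single gene of this list called at 4 months, at 1.35 ± 0.21 (adjusted p = 8.64e-04), with 7.24 on diabetic and 5.89 on control arrays. Cxcl11, a related chemokine, rose at 8 months by 1.93 ± 0.21 and Oasl1 by 0.86 ± 0.13. Of the 14 standard subunits of the proteasome 1 was called higher at 8 months (Psma7, by 0.18 ± 0.06), against 9.87% of all genes. All 14 had a positive difference, with a median of 0.09 and 4 higher at an unadjusted p under 0.05, and the median of the 3 exchanged subunits was 0.83, a contrast that was not tested. Of 8 other antigen processing genes 2 were called higher, the trimming peptidase Erap1 by 0.49 ± 0.10 and the non-classical heavy chain H2-M3 by 0.39 ± 0.12. All 7 class II genes tested were called higher at 8 months, among them Ctss by 1.56 ± 0.23, H2-Eb1 by 0.97 ± 0.19 and H2-DMb2 by 0.57 ± 0.14.

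Macrophage, dendritic cell, lymphocyte and plasma cell markers were mostly higher at 8 months, as these genes were, and kidney epithelium markers mostly lower. The 8-month counts of all marker lists stand against 9.87% of all genes called higher and 6.95% called lower. At 8 months 14 of 16 macrophage and dendritic cell markers were called higher, with a median of 1.17, led by Lyz2 at 2.69 ± 0.23, Cd68 at 2.35 ± 0.21 and Ms4a7 at 2.10 ± 0.19. Their mean log2 signal per array lay between 7.74 and 9.22 on 8-month diabetic arrays, against 6.93 to 7.30 on control arrays. Of 10 lymphocyte and plasma cell markers 7 were called higher, with array means of 6.94 to 8.18 on diabetic and 6.72 to 7.00 on control arrays, among them Ighm at 2.52 ± 0.21. The markers Itgam, Cd3g, Cd79b, Ms4a1, Nkg7, Gzmb, S100a8, S100a9, Camp and Cxcr2 were below the filter. Neither of the 2 neutrophil markers tested and none of 7 endothelial markers was called by limma, also at an unadjusted p under 0.05. Of 9 kidney epithelium markers 8 were called lower and 1 higher, with array means of 11.60 to 12.14 on diabetic and 12.24 to 12.30 on control arrays.

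Macrophage and dendritic cell markers were high on the same 8-month diabetic arrays as the members. Per array, the median of the macrophage and dendritic cell markers above the control mean was 1.38, 1.28, 2.29, 0.60, 0.49 and 0.90 for diabetic arrays 1 to 6. Arrays 1, 2 and 3 were the 3 highest by these markers as by the members, with array 3 well above array 1 by the markers and about level with it by the members. For the lymphocyte and plasma cell markers the medians were 0.44, 0.61, 1.26, 0.56, -0.05 and 0.45. At 4 months diabetic array 1, high in the members, was also the highest in macrophage and dendritic cell markers, with an array mean of 7.13 against 6.68 to 6.86 on the other diabetic arrays, and control array 2 had 6.72 against 6.53 to 6.68 on the other controls. On 4-month diabetic arrays 2 to 7 the medians of these markers were 0.02 to 0.18 above the control mean. The medians of the members on the same arrays were -0.10 to 0.00. The part of these cells in the differences of the members was not tested, and in whole-kidney RNA more cells of a type and more RNA per cell cannot be told apart.

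**Figure D4:**
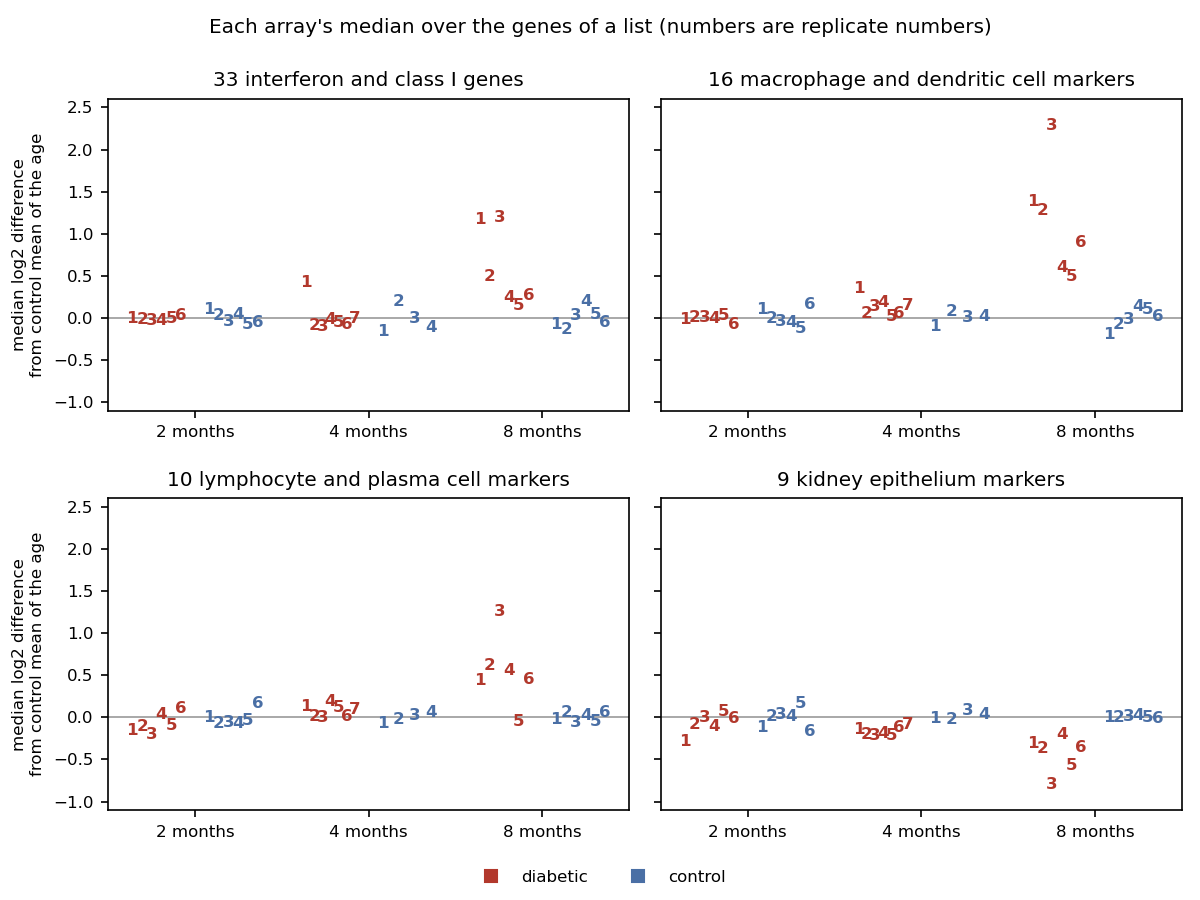
Median over the genes of a list of the log2 signal minus the control mean of the same age, for the 33 members and 3 marker lists, with each array drawn as its replicate number, diabetic left of control. At 8 months the members' medians of the diabetic arrays run from 0.15 to 1.19 and those of the macrophage and dendritic cell markers from 0.49 to 2.29.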

How the data were processed

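Per the labels, whole-kidney RNA came from a TRIzol extraction and 5 ug of it was turned into biotin-labelled cRNA for each of 35 Affymetrix arrays. The deposited values are log2 probe set signals for 45101 probe sets. The summarization and normalization by the authors were not given in the sources used here, and the log2 scale was read from the range of the values.

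Of the probe sets 34945 name 1 gene and 932 name several, which were not used. The brightest probe set by its mean stood for each of 18193 genes. A mean of at least 5.27, the 40th percentile of probe sets, kept 13004 genes. The 35 arrays entered a single limma fit of group means (limma 3.58.1, R 4.3.3, data.table version 1.17.8), first tested on simulated data, and the contrasts are diabetic minus control within an age and their differences between ages. Two-sided p-values were adjusted over these 13004 genes by the Benjamini-Hochberg method, and an adjusted p under 0.05 is a call. Errors are SE of the fit unless marked SD.

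The members and lists were chosen with earlier results of these data known. Named with values by array are members called at 2 or 4 months, the 8 called members with the largest 8-month difference, and the member with the smallest p in each role, and Igtp in addition. From the other lists up to 3 genes with the smallest 8-month p are named. The alternatives change the normalization, the filter, the probe set, the moderation, the weights and the arrays used. Arrays of the same number in diabetic and control groups deviated together at 2 months (r of 0.246 to 0.444 in 6 of 6 pairs), though the labels state no pairing. Arrays 5 and 6 of both 2-month groups also had higher array medians, 6.05 to 6.09, against 5.98 to 6.03 on arrays 1 to 4. The labels name no batch, and whether this difference gave the correlations was not tested. With arrays 5 and 6 as a batch term, 0 members and 696 genes were called at 2 months. A fit with the number as a block changed no call of a member at 2 months, while over all genes it called 553 against 330 without it.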

Additional observations from a re-analysis of the deposited data

Results flagged for a closer look

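Each group of arrays was searched, gene by gene over the 33 members, for a highest or lowest value far from the nearest other array by Dixon's 95% limit, which chance passes in about 1 of 20 groups. Of 198 groups 30 held such a value, 16 of them in the 4-month diabetic group, 3 in the 4-month control group, 8 in the 2-month control group and 3 in the 8-month control group. Groups of the same arrays are not independent of each other, since 1 array can stand apart in many genes.

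All 16 in the 4-month diabetic group were the highest value and came from array 1. Its log2 signals were 7.55 for Ifih1, 6.08 for Oasl2, 9.29 for Irf1, 7.98 for Irf9, 6.80 for Ifit1 and 8.17 for Ifit3. It read 7.64 for Ubd, 9.35 for Gbp2, 10.62 for Igtp and 10.17 for Irgm1. For the presentation genes it read 8.57 for Psmb8, 8.28 for Psmb9, 8.68 for Psmb10, 7.17 for Tap1, 7.98 for Tap2 and 12.81 for H2-K1. The nearest other 4-month diabetic arrays were 8.73 for Igtp, 8.80 for Irgm1 and 5.91 for Ubd.

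In the 4-month control group the 3 values were the highest and came from array 2, with 8.70 for Psmb8, 8.32 for Psmb9 and 8.74 for H2-DMa. The 8-month control group held a high Rsad2 of 9.59 on array 5, and a high Gbp2 of 7.60 and a high Tap1 of 7.02 on array 4. In the 2-month control group array 6, which had the highest beta-actin 3'/5' ratio, was lowest for Oasl2 at 5.31, Irf9 at 6.67, Irgm1 at 8.47 and H2-D1 at 12.59. Array 5 of that group was lowest for Ifi35 at 8.61. Array 4 was highest for Ifit2 at 7.64 and Ifit3 at 8.29, and array 1 was highest for H2-DMa at 7.94. The part of RNA quality in these values was not tested.

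The difference between diabetic and control kidneys was itself larger at 8 than at 2 months in 12 members by limma. These changes were 0.78 for Ifih1, 0.74 for Oas1a, 1.40 for Ifit1, 0.68 for Ifi35, 0.99 for Bst2 and 3.26 for Ubd. They were 1.46 for Psmb8, 0.93 for Psmb10, 0.47 for H2-D1, 0.64 for H2-K1, 0.57 for B2m and 1.42 for H2-DMa. Against 4 months, Bst2 alone was called, with a change of 1.03.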

How the results depend on the processing

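The median difference of the members at 8 months lay between 0.29 and 0.70 under every alternative run, with the low end without 8-month diabetic arrays 1 and 3. Calls at 8 months, 27 in the report, numbered 15 on the 8-month arrays alone, 8 without diabetic arrays 1 and 3 and 19 to 28 with each array left out in turn. They numbered 22 to 27 under the other alternatives run over all ages, and 19 on the 8-month arrays with array weights. In 19 of the 27 members the call held whichever array was left out. At 4 months the single call, Gbp3, became 0 with each array scaled to one mean and SD, with the second brightest probe set, with the replicate block and without controls 3 and 4, and was 0 to 1 with arrays left out in turn. Gbp3 itself has 1 probe set, so its loss with second brightest probe sets comes from the other genes in the adjustment. At 2 months 1 member, Gbp3, was called (lower) with array weights. For 8 against 2 months, 12 calls became 7 with second brightest probe sets, 9 with the mean of all probe sets and 16 with array weights. They became 8 without 2-month arrays 5 and 6, 3 without 8-month diabetic arrays 1 and 3, and 8 to 14 with arrays left out in turn. For 8 against 4 months, 1 call became 2 with either quantile normalization, 3 with scaled arrays, 11 with array weights, 0 with the replicate block, 0 without 4-month controls 3 and 4, 0 without 8-month diabetic arrays 1 and 3, and 0 to 7 with arrays left out in turn. Of the members called, Xaf1 at 8 months alone turned its sign under these alternatives, at -0.085 with its second brightest probe set, which is below the filter. The median difference of the members took both signs at 2 months (-0.06 to 0.03) and at 4 months (-0.06 to 0.15). Arrays of the same number correlated at 0.0484 to 0.177 at 4 months (1 of 4 pairs over 0.1) and at -0.142 to 0.233 at 8 months (2 of 6 pairs). The labels state no pairing at these ages, and low correlations cannot show whether there was one. The replicate block lost Irgm1 at 8 months and Oas1a and Psmb10 for 8 against 2 months, and gave 26 and 10 calls. Except where named, the cause of a change was not tested. Leaving out 8-month diabetic arrays 1 and 3, leaving out 4-month diabetic 1 and control 2, and weighting the 8-month arrays alone were chosen after seeing the data. Mx1, Ifnb1 and Ifng had mean signals below the filter and were not tested.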
